A study of Mus musculus with 20 samples.

Results

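The genes described here are 9 regulators of heart progenitor cells, Hand1, Hand2, Isl1, Nkx2-5, Tbx1, Tbx5, Tbx20, Mef2c and Pdgfra, chosen by name and followed through all 20 libraries of the series. Each has 1 row among the 22102 of the time course table and 1 row among the 42115 rows with values of the second table, called the discovery table here. Heart progenitors arise from mesoderm that passes through a primitive streak stage and then divides into the first heart field, which builds most of the left ventricle, and the second heart field, which adds the outflow tract and right ventricle. A small set of transcription factors marks these fields: Nkx2-5 acts in both, Tbx5 and Hand1 mostly in the first, and Isl1, Tbx1 and Hand2 mostly in the second. In mice, losing one of several of these factors arrests heart development, and many of them bind and activate the same cardiac genes together.

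The study asked whether Braveheart, a long non-coding RNA of the mouse, is needed for cells to commit to the cardiac lineage. The time course has 12 libraries, from E14 mouse embryonic stem cells (mESCs, strain 129/Ola) transduced with a lentiviral pLKO.1 vector and selected with puromycin. There are 3 cultures, carrying hairpin A or hairpin B against Braveheart or a scrambled hairpin, and each gave 1 library at days 0, 3, 6 and 9 of differentiation. All 3 cultures therefore carry a hairpin vector, each hairpin is represented by 1 culture, and the differences between hairpin and scrambled cultures cannot be told apart from other differences between cultures. Both an embryoid body and a directed cardiomyocyte protocol are described in the labels, without saying which library came from which. Braveheart's own level was not analysed here, so the depletion was not checked.

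The discovery set has 8 libraries and no differentiation. It holds the partially reprogrammed fibroblast lines 11.3 (MCV6) and 11.5 (MCV8), the fully reprogrammed line miPS MCV8.1, the fibroblasts they came from (MEF), and stem cells of the lines E14 and v6.5 with 2 libraries each. The MEFs are 129/svJae x C57BL/6 embryonic fibroblasts with an Oct4-GFP reporter, and the 3 derived lines also carry retroviral Oct4, Sox2, c-myc and Klf4; the labels call 11.3 and 11.5 subclones. The v6.5 cells share the strain of the MEFs, and the E14 cells are 129/Ola. Stem cells and miPS were grown on irradiated fibroblast feeders and pre-plated to remove them, whereas lines 11.3 and 11.5 were grown without feeders. MEF and miPS have 1 library each. The spread behind each p-value of this set is that between libraries of a group. For E14 and v6.5 nothing in the labels says that the 2 libraries came from separate cultures, so their spread may be technical. The partially reprogrammed group pairs 2 different lines, so its spread includes the difference between those lines.

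Time course values are FPKM, fragments scaled by transcript length and by mapped fragments. Depth was recovered from the steps between low values. At the recovered depths 3 reads on a transcript of 1 kilobase give 0.229 to 0.376 FPKM, so values below about this size rest on very few reads. Marker genes set the hairpin B libraries of days 6 and 9 apart from the rest. The 8 pluripotency markers in the table (such as Pou5f1, Nanog and Zfp42) summed to 1376, 4882 and 1033 FPKM at day 6 and to 834, 7594 and 707 FPKM at day 9, in hairpin A, hairpin B and scrambled. The 19 cardiomyocyte markers (such as Actc1, Tnnt2 and Myh6) summed to 84.7, 39.1 and 128 FPKM at day 6 and 120, 39.2 and 608 FPKM at day 9 in the same order. At day 9 the hairpin B culture had a pluripotency sum within the range of the day 0 libraries, which held 5645 to 7648 FPKM. The values of each hairpin are therefore given apart.

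**Figure D1:**
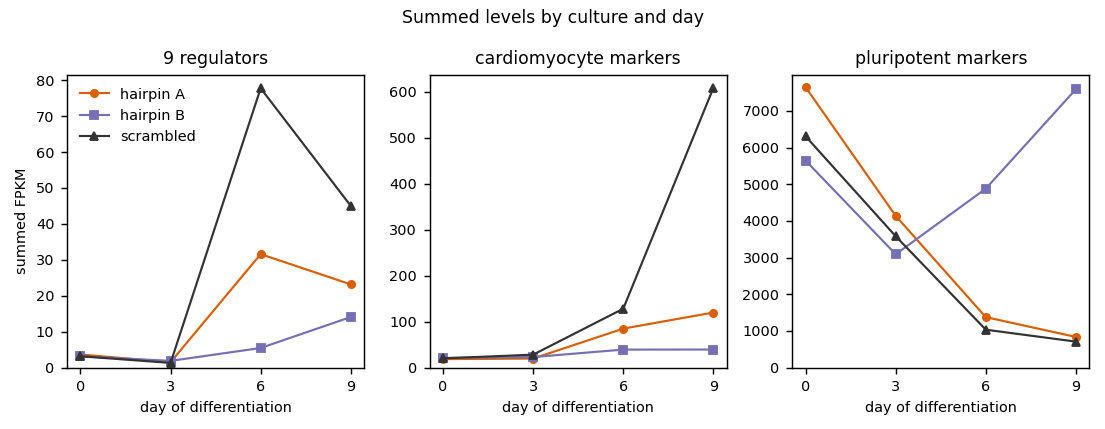
Summed FPKM of the 9 regulators, the cardiomyocyte markers and the pluripotency markers against day, 1 line a culture and 1 library a point. At day 6 the regulators summed to 31.6 FPKM in hairpin A, 5.44 in hairpin B and 77.7 in scrambled, while the pluripotency sum was highest in hairpin B.

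Sequence before the transcription start was available from RefSeq (GRCm38.p6) for 7 of the 9 genes, in 10 windows. The 250 bases before the start are shown for Hand2 and Isl1, which hold words bound by GATA factors, partners of many of these regulators, and for Nkx2-5, which holds none there. Capitals mark the GATA words searched, AGATAA (or TGATAA with the other first base) and AGATAG (or TGATAG with the other first base), on either strand. The windows lie on GRCm38.p6 at chr8:57320733-57320982 (plus strand, Hand2), chr13:116309689-116309938 (minus strand, Isl1) and chr17:26841566-26841815 (minus strand, Nkx2-5), and each reads 5′ to 3′ towards its gene.
Hand2: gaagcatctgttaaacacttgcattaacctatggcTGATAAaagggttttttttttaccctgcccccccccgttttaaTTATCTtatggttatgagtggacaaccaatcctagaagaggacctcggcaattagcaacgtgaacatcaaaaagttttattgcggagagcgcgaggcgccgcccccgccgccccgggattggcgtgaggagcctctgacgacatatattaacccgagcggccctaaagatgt
Isl1: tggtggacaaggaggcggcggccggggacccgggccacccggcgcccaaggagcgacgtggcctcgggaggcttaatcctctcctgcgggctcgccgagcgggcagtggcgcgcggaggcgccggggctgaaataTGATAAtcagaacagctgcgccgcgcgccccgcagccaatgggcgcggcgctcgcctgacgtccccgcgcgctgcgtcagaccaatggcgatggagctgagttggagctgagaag
Nkx2-5: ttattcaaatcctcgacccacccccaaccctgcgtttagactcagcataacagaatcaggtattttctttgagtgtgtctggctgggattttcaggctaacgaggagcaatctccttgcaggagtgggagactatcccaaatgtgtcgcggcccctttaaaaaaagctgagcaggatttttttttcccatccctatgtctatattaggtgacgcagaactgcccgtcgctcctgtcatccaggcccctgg
Hand2 has 2 such words, which begin 215 and 172 bases before the start, and Isl1 has 1, which begins 115 bases before it. GATA words were in 2 of the 10 windows of the regulators, against 26.5% of all 32851 RefSeq windows of this length. The E-box CANNTG, the word read by basic helix-loop-helix factors such as Hand1 and Hand2, was in 7 of 10 windows, against 66.2% of all windows. The T-box word AGGTGT was in 3 of 10, against 11.8%, and the word TNAAGTG of the Nkx family and the word of the MEF2 family were in 0 of 10, against 10.1% and 3.20%. All words were searched on both strands. The ratio of observed to expected CpG was above the median of all windows (0.373) in 7 of the 10. A match describes these letters only and is not evidence of binding.

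At days 0 and 3 the 9 regulators were low in every culture. At day 0 their values ran from 0.00537 FPKM (Tbx5, hairpin A) to 1.92 FPKM (Pdgfra, hairpin A), and at day 3 from 0 to 1.04 FPKM (Isl1, hairpin B). Summed over the 9 genes, day 0 held 3.63, 3.13 and 3.14 FPKM and day 3 held 1.49, 1.85 and 1.29 FPKM in hairpin A, hairpin B and scrambled. Pdgfra, a receptor tyrosine kinase of mesoderm and of fibroblasts, was the highest of the 9 genes at day 0 in each culture. At day 3 it had 0.197 FPKM in hairpin A, 0.147 FPKM in hairpin B and 0.172 FPKM in scrambled, all marked as low data by the authors, against 1.92, 1.06 and 1.58 FPKM at day 0 in the same order. For Pdgfra the 3 libraries of day 3 lay below the 3 of day 0. The same held for Hand1, Hand2 and Tbx5, at values of no more than 0.296 FPKM. No share of all genes was computed for this pattern. The fibroblast markers, such as Col1a1 and Dcn, moved the same way: they summed to 16.9, 11.4 and 18.8 FPKM at day 3, against 97.2, 89.3 and 84.7 FPKM at day 0. Their part in the Pdgfra values was not tested. In the test across days the Pdgfra difference was -1.09 ± 0.63 (SE) on the log2(FPKM + 1) scale, with an adjusted p of 0.334 from limma, and 0 of the 8 regulators tested were called, against 6.04% of all 14108 genes. At an unadjusted p below 0.05 the count was also 0, against 23.6% of all genes. Tbx5 did not reach the minimum of 1 FPKM in 2 libraries and so entered no test in the time course. Without the hairpin B culture limma called Pdgfra lower at day 3 (adjusted p = 0.0479), as it did 2312 of the 14108 genes. Leaving out the hairpin A or the scrambled culture gave calls for 0 of 8 regulators, with 11 and 16 genes called in all.

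The summed level of the regulators was higher at day 6 than at day 3 in each culture. In the scrambled culture all 8 tested genes were at least 2-fold higher at day 6 than at day 3 on the log2(FPKM + 1) scale, a size that 8.58% of all genes reached there. This scale understates the change of genes with low values. Hand1, Hand2, Nkx2-5, Tbx1, Tbx20 and Mef2c reached the minimum of 1 FPKM at days 6 and 9 only. Isl1 reached it before day 6 in 1 library only, hairpin B of day 3 (1.04 FPKM). The filter thus let these genes in through the later days, so the counts and calls given here are no independent support for a rise. In hairpin A 6 of the 8 tested genes were at least 2-fold higher on that scale (7.34% of all genes), and in hairpin B 1 of 8, Hand1 (3.5% of all genes). For 7 of the 9 genes each library of day 6 was above each library of day 3, a pattern found in 24.6% of all genes, and the exceptions were Hand2 and Tbx5. Over the 3 cultures together Hand1 rose by 3.02 ± 0.61 (SE, n = 3 libraries a day; limma, adjusted p = 0.0268), in 3 of 3 cultures. It was the 1 of 8 regulators called higher, against 3.03% of all genes. The other 7 had differences of 1.00 (Mef2c) to 2.31 (Isl1), all positive, with adjusted p of 0.0595 (Nkx2-5) to 0.228 (Mef2c) in the same limma fit, and 7 of 8 had an unadjusted p below 0.05, against 27.2% of all genes. With the culture as a replicate block, which pairs libraries of the same cell line, 3 of 8 were called (Hand1, Nkx2-5 and Tbx20, adjusted p 0.0243, 0.0424 and 0.0496), against 6.85% of all genes. Without the hairpin B culture all 8 were called higher, Isl1 with 3.42 ± 0.18 and Hand1 with 3.82 ± 0.40 (SE; limma, adjusted p 0.000248 and 0.00131), against 27.9% of all genes. Without the hairpin A or the scrambled culture limma called 0 of 8, against 0.0354% and 0.0284% of all genes, with an adjusted p for Hand1 of 0.388 and 0.431.

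**Figure D2:**
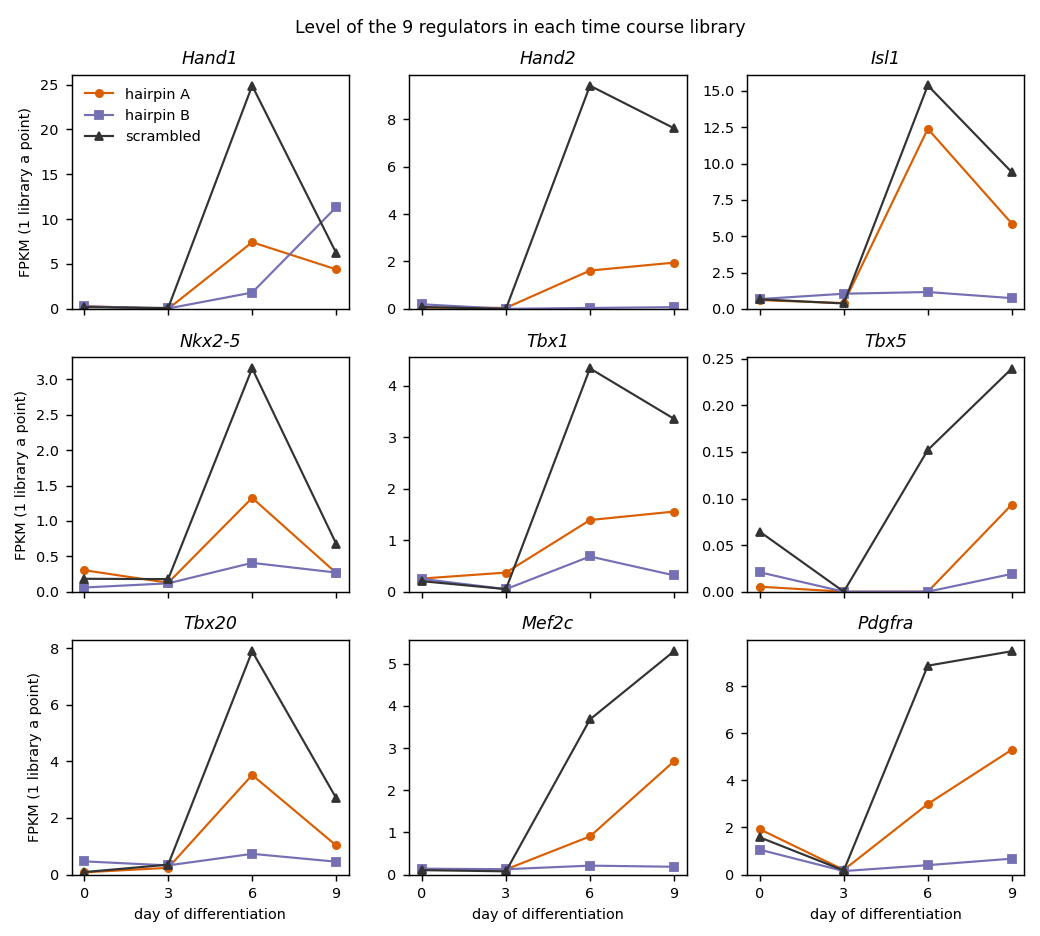
FPKM of each regulator against day of differentiation, 1 point a library and 1 line a culture; each panel has its own scale. The scrambled line is the highest of the 3 at day 6 in all 9 panels, and at day 9 Hand1 is highest in hairpin B.

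Hand1, a basic helix-loop-helix factor of the first heart field that is also needed in extraembryonic tissue, lies at chr11:57642214-57645649 of build mm9, as the authors' table gives it. At day 6 it had 7.43 FPKM in hairpin A, 1.81 FPKM in hairpin B and 24.9 FPKM in scrambled. At day 9 the values were 4.40, 11.3 and 6.23 FPKM. The scrambled library was thus highest at day 6, and at day 9 hairpin B was above both others, the one instance at days 6 and 9 in which a regulator was above scrambled in a hairpin library. Low FPKM values of Hand1 were whole multiples of 1 read to within 0.05 reads, which gave 115, 40 and 444 reads at day 6 and 64, 271 and 118 reads at day 9. The exact 95% Poisson intervals at day 9 were 49.3 to 81.7 reads in hairpin A, 240 to 305 in hairpin B and 97.7 to 141 in scrambled. Such intervals cover counting error only, and reads are not scaled to library depth. In FPKM, which allows for depth, they were 3.38 to 5.61 in hairpin A, 10.0 to 12.8 in hairpin B and 5.16 to 7.47 in scrambled. On that scale the intervals of hairpin A and scrambled overlapped. The endoderm markers such as Afp and Ttr summed to 61.9, 4.36 and 72.6 FPKM in the 3 libraries of day 9, lowest in hairpin B. At day 9 the cardiomyocyte, blood, fibroblast, neural and neural crest sums were also lowest in hairpin B. The pluripotency, endothelial and skeletal muscle sums were not. The part of these cell types in the Hand1 values was not tested.

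Hand2, the related factor of the second heart field and right ventricle, lies at chr8:59799779-59803314 (mm9). It had 1.62 FPKM in hairpin A, 0.0378 FPKM in hairpin B and 9.42 FPKM in scrambled at day 6, and 1.95, 0.0703 and 7.62 FPKM at day 9. These were 30, 1 and 201 reads at day 6 and 34, 2 and 172 reads at day 9. The intervals of the reads did not overlap between any of the 3 libraries on either day: at day 6 they were 20.2 to 42.8 in hairpin A, 0.0253 to 5.57 in hairpin B and 174 to 231 in scrambled. Hand2 was the regulator with the largest mean difference between hairpins and scrambled at days 6 and 9 on the log2(FPKM + 1) scale. In plain FPKM, a scale chosen after seeing the data, it was at least 2-fold lower in both hairpins at both days, as were Tbx1, Tbx20 and Nkx2-5. For Nkx2-5 at day 9 this rested on 3, 5 and 10 reads in hairpin A, hairpin B and scrambled, with overlapping intervals.

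Isl1, a LIM-homeodomain factor that marks second heart field progenitors, lies at chr13:117088477-117099896 (mm9). It had 12.4 FPKM in hairpin A, 1.16 FPKM in hairpin B and 15.4 FPKM in scrambled at day 6, and 5.87, 0.738 and 9.40 FPKM at day 9. Hairpin A was close to scrambled at day 6, with a difference of -0.29 on the log2(FPKM + 1) scale, and hairpin B was far below, with -2.92. Of the 8 tested regulators Isl1 had the widest gap between the 2 hairpins at day 6. The hairpin B value at day 6 was near the 1.04 FPKM of that culture at day 3.

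Tbx1, the T-box factor of the second heart field and pharynx, lies at chr16:18581805-18587062 (mm9). At day 6 it had 1.39 FPKM in hairpin A, 0.684 in hairpin B and 4.33 in scrambled, which were 20, 14 and 72 reads, and at day 9 it had 1.56, 0.318 and 3.36 FPKM. In FPKM, which allows for depth, the counting intervals of the 2 hairpins overlapped at day 6, with 0.850 to 2.15 in hairpin A and 0.375 to 1.15 in hairpin B. Both were below the scrambled interval of 3.41 to 5.49 FPKM. Overlap of intervals is not a test of a difference.

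Nkx2-5, the homeodomain factor found in both heart fields, lies at chr17:26975609-26978510 (mm9). It had 1.33 FPKM in hairpin A, 0.407 FPKM in hairpin B and 3.16 FPKM in scrambled at day 6, from 16, 7 and 44 reads. At day 9 it had 0.265, 0.270 and 0.678 FPKM, from 3, 5 and 10 reads. The intervals of the hairpins lay below that of scrambled at day 6 (9.15 to 26.0, 2.81 to 14.4 and 32.0 to 59.1 reads), and all 3 intervals overlapped at day 9 (0.619 to 8.77, 1.62 to 11.7 and 4.80 to 18.4 reads). A difference at day 9 was not detectable at this depth.

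**Figure D3:**
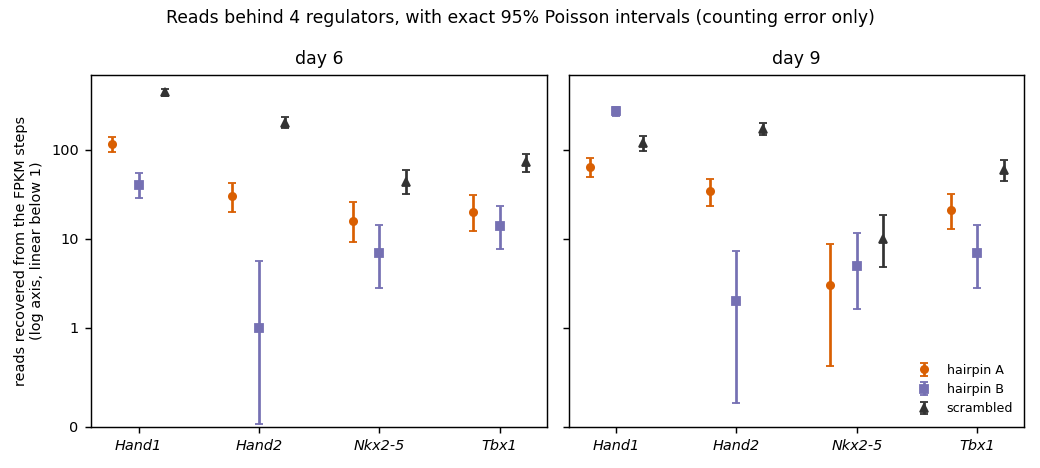
Reads recovered from the FPKM steps for Hand1, Hand2, Nkx2-5 and Tbx1 at days 6 and 9 on a log axis (linear below 1), with exact 95% Poisson intervals as bars, hairpin A, hairpin B and scrambled from left to right. Hand2 rested on 1 and 2 reads in hairpin B against 201 and 172 in scrambled, and the Nkx2-5 intervals overlap at day 9. Reads are not scaled to library depth, which differed between libraries.

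Tbx20, a T-box factor that promotes growth of the chambers, lies at chr9:24527647-24578746 (mm9). It had 3.52 FPKM in hairpin A, 0.732 FPKM in hairpin B and 7.89 FPKM in scrambled at day 6, and 1.03, 0.454 and 2.70 FPKM at day 9. The order of the 3 libraries was the same on both days, and every library of day 9 was below that of the same culture at day 6. Tbx5, the T-box factor of the first heart field and of the forelimb, lies at chr5:120284671-120335227 (mm9) and stayed near zero. It was listed at 0 in hairpin A and hairpin B and had 0.152 FPKM in scrambled at day 6, and it had 0.0936, 0.0191 and 0.240 FPKM at day 9. Those values are too low to compare.

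Mef2c, a MADS-box factor that activates muscle genes, lies at chr13:83643032-83806684 (mm9). At day 6 it had 0.904 FPKM in hairpin A, where the authors marked the value as low data, 0.211 FPKM in hairpin B and 3.68 FPKM in scrambled, and at day 9 it had 2.68, 0.185 and 5.30 FPKM. Pdgfra lies at chr5:75548315-75594229 (mm9). It had 3.00 FPKM in hairpin A, 0.399 FPKM in hairpin B and 8.87 FPKM in scrambled at day 6, and 5.30, 0.674 and 9.48 FPKM at day 9. In hairpin A and scrambled these 2 genes were higher at day 9 than at day 6, whereas Isl1, Nkx2-5, Tbx20 and Hand1 were lower there. In hairpin B Mef2c and Pdgfra stayed below 1 FPKM on both days. The fibroblast markers summed to 30.1, 26.5 and 29.4 FPKM at day 6 and to 83.5, 35.3 and 164 FPKM at day 9, so they were higher at day 9 in each culture. Their part in the Pdgfra values was not tested.

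Against scrambled, the 8 tested regulators were lower at day 6 in both hairpin libraries, a pattern shown by 33.4% of all 14108 genes. Hand2, Nkx2-5, Tbx1, Tbx20 and Mef2c reached the minimum of 1 FPKM only in scrambled and hairpin A libraries, never in hairpin B. They were thus tested because they were high in those libraries. The hairpin counts and unadjusted p-values given here and below are therefore no independent support for a lower level. Of the 8 tested regulators, 5 were at least 2-fold lower in both hairpins on the log2(FPKM + 1) scale (Hand1, Hand2, Tbx1, Mef2c and Pdgfra), against 0.68% of all genes. With a pseudocount of 0.1, and in plain FPKM, it was 7 of 8, all but Isl1. With a pseudocount of 0.1, 218 of the 14108 genes met this rule, and in plain FPKM no share of all genes was computed. With the pseudocount of 1, hairpin A alone was at least 2-fold lower for the same 5, against 0.964% of all genes, and hairpin B alone for all 8, against 6.13%. The median difference of the 8 genes was -1.23 in hairpin A and -2.59 in hairpin B on the log2(FPKM + 1) scale, against medians of -0.0024 and -0.05 over all genes. With hairpins A and B taken as 2 replicates of depletion, the differences were -2.66 ± 0.72 for Hand2, -2.41 ± 0.72 for Hand1, -2.06 ± 0.88 for Pdgfra and -1.67 ± 0.58 for Tbx20 (SE). They were -1.62 ± 0.65 for Mef2c, -1.61 ± 1.16 for Isl1, -1.41 ± 0.47 for Tbx1 and -1.20 ± 0.37 for Nkx2-5. None passed the threshold, with adjusted p of 1 for each from limma, where 0 of 8 regulators and 0.0425% of all genes were called. At an unadjusted p below 0.05 there were 6 of 8 regulators, all but Isl1 and Pdgfra, against 1.05% of all genes. The spread in this fit comes from the hairpin pairs alone, because each day has 1 scrambled library. In bulk RNA, fewer cells of a type and less RNA per cell cannot be told apart.

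**Figure D4:**
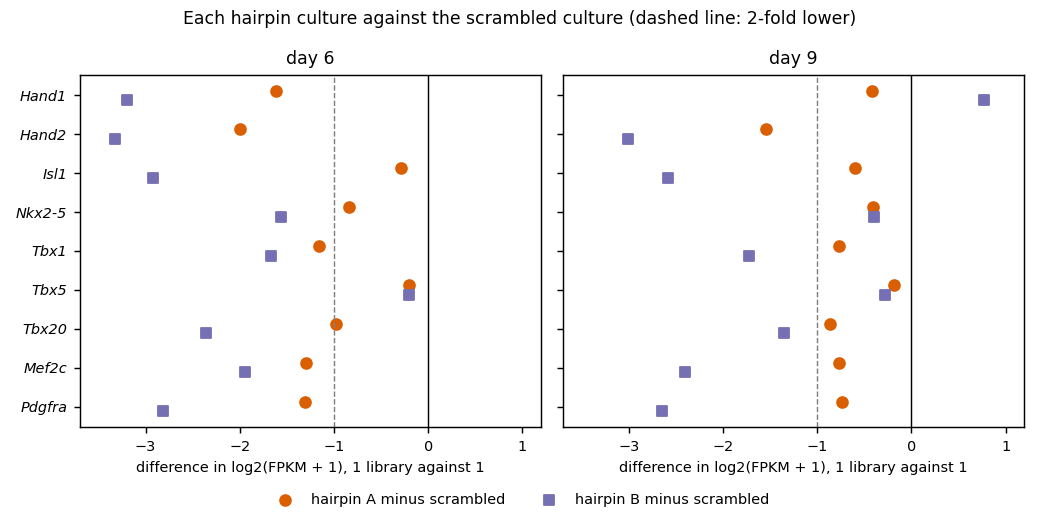
Difference in log2(FPKM + 1) between each hairpin library and the scrambled library of the same day, for the 9 regulators at days 6 and 9; circles are hairpin A, squares hairpin B, and the dashed line marks 2-fold lower. All points are left of 0 except Hand1 in hairpin B at day 9, at 0.77.

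At day 9, 7 of the 8 regulators were lower in both hairpins (34.2% of all genes), the exception being Hand1, and on the log2(FPKM + 1) scale 1 was at least 2-fold lower in both, Hand2 (0.659% of all genes). With a pseudocount of 0.1, and in plain FPKM, the last count was 4. With a pseudocount of 0.1, 175 of the 14108 genes met this rule, and in plain FPKM no share of all genes was computed. The plain FPKM count included Nkx2-5, which rested on 3, 5 and 10 reads in hairpin A, hairpin B and scrambled. Hairpin B alone was at least 2-fold lower for 6 of 8 (13.5% of all genes) and hairpin A alone for 1 of 8 (1.17%). The median difference was -0.75 in hairpin A and -2.07 in hairpin B, against -0.03 and -0.10 over all genes. In the fit the largest differences were -2.28 ± 0.72 for Hand2 and -1.69 ± 0.88 for Pdgfra, and Hand1 had 0.17 ± 0.72 (SE). None of the 8 was called (limma, adjusted p from 0.873 to 0.955), against 0.0354% of all genes, and 3 of 8 had an unadjusted p below 0.05 (Hand2, Mef2c and Tbx1), against 1.41%.

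The 2 hairpins did not give the same size of difference. At day 6 hairpin B was below hairpin A for all 8 tested regulators, as for 54.9% of all genes, and at day 9 for 6 of 8, as for 53.1%. The median gap of the 8 genes was -1.36 at day 6 and -1.21 at day 9 on the log2(FPKM + 1) scale, against -0.06 on both days over all genes. Hand1 at day 9 ran the other way, with hairpin B 1.19 above hairpin A. With 1 library a hairpin this gap has no replicate check, and the filter let several of these genes in through hairpin A and scrambled libraries alone.

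At days 0 and 3 the 8 tested regulators, except Pdgfra at day 0, were below 1 FPKM in scrambled, a level from which a 2-fold lower value cannot be reached on the log2(FPKM + 1) scale. At day 0, 3 of the 8 regulators were higher in both hairpins and 0 were lower in both, against 32% and 29.9% of all genes, and at day 3 it was 2 and 3, against 26.7% and 27.8%. On each day limma called 0 of 8 (0.0213% and 0.0284% of all genes were called), with 0 of 8 also at an unadjusted p below 0.05 (0.468% and 0.262% of all genes). The test of the change itself, the mean difference of days 6 and 9 minus that of days 0 and 3, gave -2.51 ± 0.72 for Hand2, -1.84 ± 0.88 for Pdgfra, -1.74 ± 1.16 for Isl1 and -1.13 ± 0.72 for Hand1 (SE). It called 0 of 8 (limma, adjusted p = 0.992 for each; 0.0496% of all genes were called), and 4 of 8 had an unadjusted p below 0.05, against 1.1% of all genes. For Hand1, the hairpin difference at day 9 minus that at day 6 was 2.58 ± 1.02 (SE; limma, adjusted p = 1).

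From day 6 to day 9 the regulators did not all move alike in the 3 cultures. The highest value was at day 6 for 6 of 9 genes in scrambled and for 4 in hairpin A, and at day 9 for 3 and 5. No share of all genes was computed for the day of the highest value. The counts include Tbx5, whose values are too low to compare. On the log2(FPKM + 1) scale 1 of the 8 tested genes was at least 2-fold lower at day 9 in hairpin A, Tbx20 (3.14% of all genes), and 3 in scrambled (2.42%), and 1 was at least 2-fold higher in hairpin B, Hand1 (2.74%). In plain FPKM 3 were at least 2-fold lower in hairpin A (Isl1, Nkx2-5 and Tbx20), 1 in hairpin B (Tbx1) and 3 in scrambled (Hand1, Nkx2-5 and Tbx20). On that scale 1 was at least 2-fold higher in hairpin A (Mef2c) and 1 in hairpin B (Hand1). No share of all genes was computed in plain FPKM, so these counts only describe the regulators. The highest value in hairpin B was at day 6 for 5 genes, at day 9 for Hand1 and at day 0 for 3 (Hand2, Pdgfra and Tbx5). For Hand2 this rested on 5 reads at day 0 and 2 at day 9. The fit over the cultures called 0 of 8 regulators (limma; 0.0425% of all genes were called), with 1 of 8 at an unadjusted p below 0.05 (Nkx2-5, -0.78 ± 0.28 SE), against 14.1% of all genes. Without the hairpin B culture 3 were called lower at day 9, Tbx20 with -1.21 ± 0.28, Nkx2-5 with -1.09 ± 0.25 and Isl1 with -0.81 ± 0.18 (SE; limma, adjusted p 0.0276, 0.0267 and 0.0248), against 11.9% of all genes.

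Ranked by FPKM in the scrambled library of day 6, Hand1 (24.9) was followed by Isl1 (15.4), Hand2 (9.42), Pdgfra (8.87), Tbx20 (7.89), Tbx1 (4.33), Mef2c (3.68), Nkx2-5 (3.16) and Tbx5 (0.152). Counting error alone separated Hand1 (22.6 to 27.3 FPKM), Hand2 (8.17 to 10.8 FPKM) and Tbx1 (3.41 to 5.49 FPKM), and did not separate Tbx1 from Nkx2-5 (2.30 to 4.25 FPKM). Over the 3 cultures of day 6 the spread was wide: Hand1 averaged 11.4 ± 12.0 FPKM, Isl1 9.64 ± 7.50, Tbx20 4.05 ± 3.61 and Hand2 3.69 ± 5.02 (SD, n = 3). The genes share these cultures. Of the 7 neighbouring pairs among the 8 tested genes, 3 kept their order in each of the 3 cultures (Isl1 above Hand2, Tbx20 above Tbx1 and Tbx1 above Mef2c), and the other pairs did not. No test of this order was made.

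The 8 tested regulators varied together across the 12 libraries as far as 4 days and 3 cultures can show: Pearson's r of log2(FPKM + 1) ran from 0.646 (Nkx2-5 with Mef2c) to 0.974 over their 28 pairs, with a median of 0.847. The libraries share days and cultures, so these are descriptions. Among 12990 other genes, those most like Hand2 were the adult-type globin genes Hbb-b2 (r = 0.994) and Hbb-b1 and the endothelial factor gene Sox7. Hbb-b2 had 2.03 FPKM in hairpin A, 0 in hairpin B and 21.7 in scrambled at day 6. Those most like Isl1 were Rbm24 (r = 0.987), an RNA-binding splicing regulator of heart muscle, Aplnr, the apelin receptor, and the embryonic globin Hbb-bh1, and Rbm24 had 13.8, 1.32 and 17.2 FPKM at day 6. Tbx1 was most like Kdr (r = 0.984), a VEGF receptor of mesoderm progenitors and endothelium, followed by Hba-x and Col23a1. Tbx20 was most like Nkx2-3 (r = 0.980), Kcnj5 and Rgs5. Mef2c was most like Pax1 (r = 0.995), Hapln1 and Erg, and Pdgfra was most like Stc1 (r = 0.971), St3gal1 and Morn4. Nkx2-5 was most like Fam19a2 (r = 0.974), Pilrb1 and Ptgdr, and Hand1 was most like Ng23 (r = 0.957), Msx2 and Psca. Blood markers, such as Hbb-bh1 and Gata1, summed to 128, 5.39 and 577 FPKM at day 6 in hairpin A, hairpin B and scrambled. All 8 tested regulators had this order of the 3 libraries at day 6, so it is not particular to Hand2.

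Lists of related genes give the setting. Of 36 other heart specification genes, 30 were tested, and between days 3 and 6 limma called 5 higher and 1 lower (3.03% and 2.73% of all genes), with a median difference of 1.06 against 0.06 over all genes. Those called higher were Bmp2 (3.12), Nr2f2 (2.70), Gata6 (2.36), Gata4 (2.11) and, named after its values were seen, Bmp4 (1.85), and Wt1 was called lower (-1.87). Gata6, a zinc-finger partner of several of the regulators, had 7.43 FPKM in hairpin A, 1.64 in hairpin B and 10.7 in scrambled at day 6. Against scrambled, 28 of the 30 were lower in the hairpin mean at day 6 and 25 of 30 in both hairpins, against 33.4% of all genes. The median was -1.05 against -0.02 over all genes, and limma called 0 of them, with 5 of 30 at an unadjusted p below 0.05, against 1.05% of all genes. Bmp2, a secreted signal that induces cardiac mesoderm, was lower in hairpin B and not in hairpin A: it had 17.3 FPKM in hairpin A, 3.76 in hairpin B and 16.6 in scrambled. Of 33 paralogues and partners of the regulators, such as other T-box, Nkx2 and Mef2 genes, 21 were tested. Their median difference at day 6 was -0.30, with 15 of 21 lower and 0 called by limma (2 at an unadjusted p below 0.05, against 1.05% of all genes), and between days 3 and 6 it was 0.45, with 0 called (6 of 21 at an unadjusted p below 0.05, a share near the 27.2% of all genes). The 4 with the highest mean level, Ldb1, Tcf3, Tcf12 and Pdgfa, did not share 1 pattern. Tcf3, a partner of the Hand factors, had 53.3 FPKM in hairpin A, 61.3 in hairpin B and 60.8 in scrambled at day 6. Tcf12, another such partner, had 38.0 FPKM in hairpin A, 16.0 in hairpin B and 40.1 in scrambled at day 6, and 97.9, 12.1 and 93.4 FPKM in hairpin A, hairpin B and scrambled at day 9, so hairpin B was the lowest on both days. Ldb1, a LIM-domain binding cofactor, had 62.7 FPKM in hairpin A, 99.7 in hairpin B and 76.1 in scrambled at day 6. Pdgfa, a ligand of Pdgfra, had 24.7 FPKM in hairpin A, 44.8 in hairpin B and 33.6 in scrambled at day 6. The streak T-box genes T (brachyury) and Eomes, picked out after their values were seen, were above scrambled in hairpin A at day 6, with 51.1 and 21.8 FPKM in hairpin A, 6.01 and 8.52 FPKM in hairpin B, and 25.4 and 15.3 FPKM in scrambled. In that library they lay on the other side of scrambled from each of the 8 tested regulators.

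In the discovery set the values are TPM, transcript abundances scaled to a fixed sum, from RSEM, which gives a gene with 0 reads a small positive TPM and gives bounds around each value. The libraries summed to 7536503 (line 11.3) to 23662593 (E14 replicate 2) expected counts. MEFs were checked by their fibroblast markers, which summed to 16225 TPM in MEF, against 168 to 320 TPM in stem cells. In the partially reprogrammed lines the pluripotency markers other than Pou5f1 (Oct4, which the retrovirus also supplies) summed to 63.3 and 130 TPM, against 2721 to 5351 TPM in stem cells.

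Several of the regulators were highest in MEFs. Partially reprogrammed lines 11.3 and 11.5 had 0.545 and 0.653 TPM of Pdgfra, miPS had 3.73 TPM, MEF had 13.8 TPM, and the 4 stem cell libraries had 2.46 ± 0.678 TPM (SD, n = 4, range 1.76 to 3.37). Each partially reprogrammed library was below each stem cell library, which was below MEF. By the deposited bounds both partially reprogrammed lines lay below all 4 stem cell libraries, as for 5.93% of the 31405 genes with reads. MEF lay above all 4 by its bounds, as for 9.74%. The edgeR quasi-likelihood test called Pdgfra lower in partially reprogrammed lines than in MEF (log2 difference -6.03 ± 0.66 SE, adjusted p = 0.00402), higher in MEF than in stem cells (3.09 ± 0.46, adjusted p = 0.00683) and lower in partially reprogrammed lines than in stem cells (-2.94 ± 0.54, adjusted p = 0.0118). Of all 16773 genes 8.87%, 15.4% and 16.1% were called in those directions, so such calls were frequent in these comparisons. The last of the 3 calls was lost when line 11.3 (adjusted p = 0.0744), line 11.5 (adjusted p = 0.0526) or E14 replicate 2 (adjusted p = 0.0506) was left out. The difference of miPS from stem cells was 0.80 ± 0.52 (SE; edgeR, adjusted p = 0.729; 0.0298% of all genes were called). Fibroblast markers summed to 205 and 482 TPM in lines 11.3 and 11.5 and 286 TPM in miPS, and the v6.5 library with the most Pdgfra also had the higher fibroblast sum (320 TPM, against 168 TPM in the other). The part of feeder cells in these values was not tested.

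Hand2 had 0.322 and 0.327 TPM in lines 11.3 and 11.5, 0.156 TPM in miPS, 8.30 TPM in MEF and 0.429 ± 0.413 TPM in stem cells (SD, n = 4). In reads these were 1 and 1, 0, 51, and 0 to 9.00. Tbx5 had 0.0820 and 0.0847 TPM in the partially reprogrammed lines, 0.244 TPM in miPS, 6.53 TPM in MEF from 81.8 expected reads, and 0.316 ± 0.196 TPM in stem cells (SD, n = 4). Tbx1 had 0.479 and 0.484 TPM in the partially reprogrammed lines, 0.763 TPM in miPS, 3.39 TPM in MEF and 0.329 ± 0.109 TPM in stem cells (SD, n = 4). For these 3 genes and Pdgfra the deposited bounds of both partially reprogrammed lines lay below those of MEF, as for 10% of the 31405 genes with reads. For the same 4 and Mef2c (1.18 and 0.867 TPM in lines 11.3 and 11.5, 2.78 TPM in MEF, 0.841 ± 0.124 TPM in stem cells, SD, n = 4) those of MEF lay above all 4 stem cell libraries, as for 9.74%. Tbx5, near zero at every day of the time course, was the third highest of the 9 genes in MEF by TPM.

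Only Pdgfra and Tbx20 reached 1 CPM (counts scaled to library size) in 2 libraries and were tested at first, since a gene high in the single MEF library alone could not pass. With a minimum of 1 CPM in 1 library, an alternative chosen after seeing the data, 7 of the 9 were tested. Then Hand2, Tbx1, Tbx5 and Pdgfra were called lower in partially reprogrammed lines than in MEF (edgeR, adjusted p 0.0378, 0.0373, 0.00702 and 0.00379), against 8.64% of all genes, and higher in MEF than in stem cells (adjusted p 0.0122, 0.00799, 0.00425 and 0.00694), against 14.5%. This filter lets in genes because they are high in 1 library, so these calls are no independent support. No fitted fold is given for Hand2, Tbx1 and Tbx5, whose other libraries hold 0 to 9.00 reads.

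Tbx20 followed another order. It had 4.98 TPM in line 11.3 and 1.39 TPM in line 11.5, 0.465 TPM in miPS, 0.776 TPM in MEF, 0.399 and 0.409 TPM in E14 and 3.03 and 1.33 TPM in v6.5. The bounds of line 11.3 (3.66 to 6.41 TPM) lay above those of line 11.5 (0.690 to 2.17 TPM), and both E14 libraries lay below both v6.5 libraries by their bounds, as for 3.74% of genes. No comparison called Tbx20, although its unadjusted p was below 0.05 in the next 2: E14 minus v6.5 was -3.46 ± 1.04 (SE; edgeR, adjusted p = 0.163; 0.489% of all genes were called) and partially reprogrammed minus stem cells was 2.31 ± 0.78 (adjusted p = 0.0702; 29.7% called in either direction). Without v6.5 replicate 2 the first was called (adjusted p = 0.0411), and without line 11.5 or v6.5 replicate 1 the second was (adjusted p 0.0471 and 0.0303).

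The remaining regulators were at or near the floor of the discovery set. Nkx2-5 had 0 reads in lines 11.3 and 11.5 and in MEF, 1 in miPS and 2 to 13 in stem cells, where v6.5 replicate 1 stood alone with 1.55 TPM against 0.148 to 0.312 TPM in the other 3. The bounds of that library (0.807 to 2.38 TPM) lay above those of the other 7 libraries. Hand1 had 1 and 2 reads in lines 11.3 and 11.5, 3 in miPS, 3 in MEF and 0 to 3 in stem cells. Isl1 had no more than 9 reads in any library. A count of 0 allows up to 3 reads, or 0.127 to 0.398 CPM depending on the library, so an order among the libraries was not detectable at this depth for Hand1 and Isl1.

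**Figure D5:**
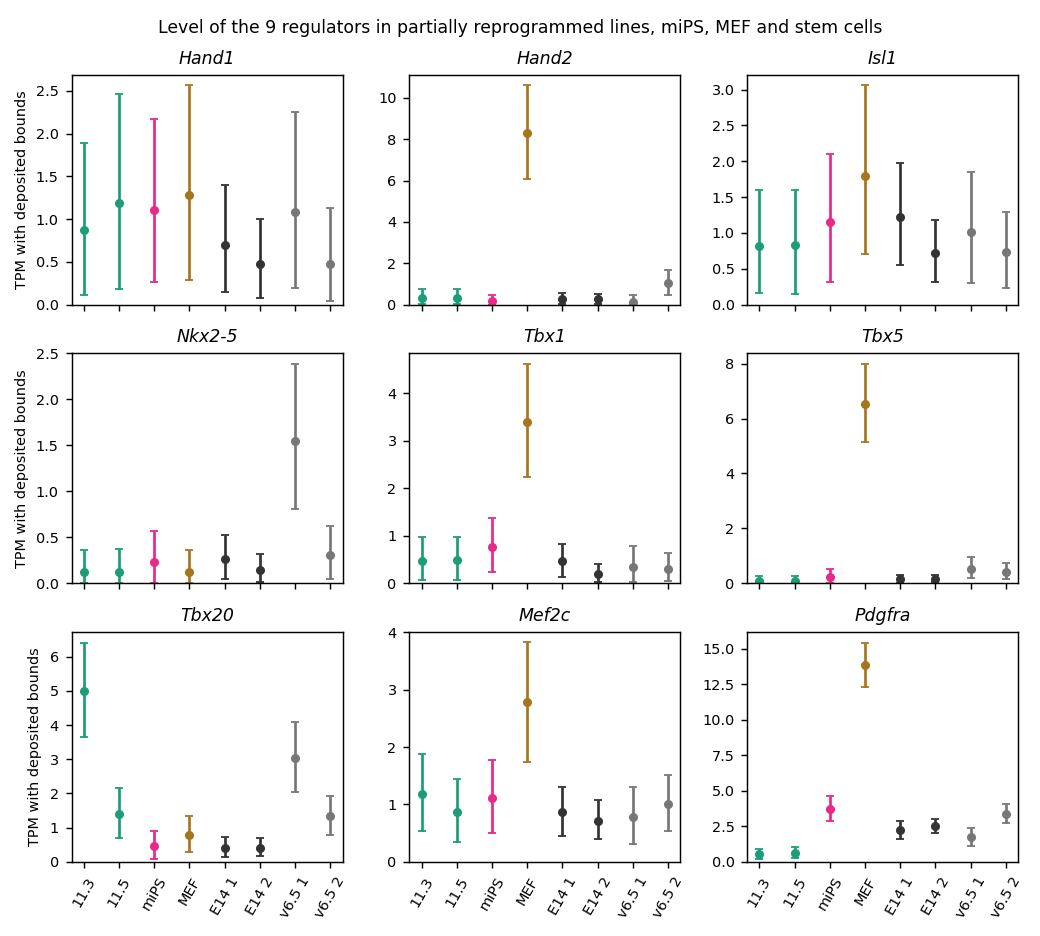
TPM of each regulator in the 8 discovery libraries with the deposited lower and upper bounds as bars, partially reprogrammed lines and miPS left of MEF and stem cells; each panel has its own scale. Hand2, Tbx1, Tbx5 and Pdgfra stand highest in MEF, and Tbx20 in line 11.3.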

How the data were processed

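Expression was measured by RNA sequencing in 12 time course and 8 discovery libraries. The authors made the time course FPKM values with TopHat 1.14, Bowtie 0.12.7 and Cufflinks 1.3.0, and the discovery expected counts and TPM values with TopHat 1.3 and RSEM, per the submitters' processing notes, on mm9; the FPKM ratios and folds that the authors deposited beside them were not used for any result. Every p-value given was computed here. The discovery table holds the deposited bounds around TPM, and the time course FPKM bounds that were planned for were not used, so overlap of bounds was examined in the discovery set alone. The 9 genes and all gene lists were chosen with earlier results of these data known.

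Time course values were taken as log2(FPKM + 1), kept where at least 1 FPKM was reached in 2 libraries (14108 genes), and tested with limma 3.58.1 with a mean trend (R 4.3.3). Depletion was fitted over 8 groups, which left 4 degrees of freedom, and days with depletion as a covariate, which left 7. Expected counts were rounded and tested with edgeR 4.0.16 (quasi-likelihood, TMM) at 1 CPM or more in 2 libraries (16773 genes), with 5 groups and 3 residual degrees of freedom; lone samples were assumed to vary like the other groups. P-values were adjusted by Benjamini-Hochberg over all genes tested, with a threshold of 0.05. Both fits were run on simulated data with set changes, independent noise of a fixed size and no difference between cultures. That run checked the working of the fits and says nothing of the spread in these libraries. Reads were recovered from the FPKM steps where at least 5 values under 12 reads lay within 0.05 of whole numbers, which held for 4 of the 9 genes. The pairing of libraries by culture comes from the shared cell line, and the deviations of same-culture libraries correlated with r from -0.091 to 0.642. All 9 genes were named; from each list, the called genes (at most 4 a direction) or else the 4 with the highest mean level; and for each gene the 3 others with the highest Pearson's r, among genes reaching 2 FPKM on loci of at least 300 bases. Alternatives were another pseudocount, no filter, a filter on short loci, another scaling, DESeq2 1.42.0, the replicate block and leaving out each library.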

Additional observations from a re-analysis of the deposited data

How the results depend on the processing

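Of 414 alternative values of single regulators, 376 kept their direction and side of the threshold, 7 reversed, 5 lost and 20 gained a call, and 6 moved without a test. The reversals concerned Hand1, Hand2, Pdgfra and Tbx20. Hand1 at day 9 minus day 6 was -0.12 in the main fit, and became 0.15 without the hairpin A culture and 0.75 without scrambled. Without hairpin B it kept its sign (-1.24). Between these days Hand1 moved by -1.84 in scrambled and by 2.13 in hairpin B. Hand1 depletion at day 9 was 0.17 in the main fit, became -0.42 without hairpin B and was 0.77 without hairpin A. Hand2 at day 9 minus day 6 was -0.018 in the main fit and 0.087 with a pseudocount of 0.1. On leaving out a culture it was -0.11 to 0.11. Pdgfra in E14 minus v6.5 reversed to 0.26 without v6.5 replicate 2 and was -0.76 without replicate 1. Tbx20 in MEF minus stem cells reversed to 0.070 without v6.5 replicate 1 and was -0.71 without replicate 2. With the replicate block, pairing libraries by culture, 1767 genes were called between days 3 and 6 (813 without), 1360 between days 0 and 3 (852 without) and 34 between days 6 and 9 (6 without), and 3 regulators between days 3 and 6 (1 without); a block by replicate number, which E14 and v6.5 libraries only share as a number, left 1 gene in miPS minus stem cells (5 without) and changed no other call of a regulator. With a pseudocount of 0.1, 2 regulators were called between days 3 and 6 and 4 were at least 2-fold lower in both hairpins at day 9, as 4 were in plain FPKM (1 with a pseudocount of 1). Depletion calls at days 0, 3, 6 and 9 and for the late minus early change (3, 4, 6, 5 and 7 genes) were 14, 9, 26, 59 and 48 with no filter and 0 in each on loci of at least 300 bases. In the discovery set DESeq2 called 1138 genes in E14 minus v6.5 (82 by edgeR) and 178 in miPS minus stem cells, and no filter gave 1417 and 222; without a filter 1, 5, 4 and 3 regulators were called in E14 minus v6.5, MEF minus stem cells, partially reprogrammed minus MEF and partially reprogrammed minus stem cells, and with 1 CPM in 1 library 4 and 4 in the middle pair. Leaving out one library or culture gave 11 to 4978, 4 to 6987 and 4 to 3673 genes and 0 to 1, 0 to 8 and 0 to 3 regulators for the day steps in order, 6 to 10, 4 to 7, 8 to 10 and 14 to 157 genes for depletion at days 0, 3, 6 and 9, and 0 to 4376 (E14 minus v6.5), 1579 to 8502 (MEF minus stem cells), 0 to 308 (miPS minus stem cells), 961 to 4850 (partially reprogrammed minus MEF) and 1954 to 8577 genes (partially reprogrammed minus stem cells), with 0 to 1 regulators in the first and 0 to 2 in the last. The cause of these shifts was not tested. Values resting on fewer than about 3 reads were limited by depth.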
